A study of Homo sapiens with 12 samples.

Results

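The MHC class II genes are described here as 10 genes taken by name: CIITA, CD74, HLA-DRA, HLA-DPA1, HLA-DPB1, HLA-DQA1, HLA-DMA, HLA-DMB, HLA-DOA and HLA-DOB. Every probe set whose gene symbol field held one of these names was used, which gave 26 of the 54675 probe sets of the array. Of the 26, 8 genes contributed several and 1 probe set carried the symbols of both HLA-DQA1 and HLA-DQA2. The data come from 12 Affymetrix U133 Plus 2.0 arrays of 3 established human multiple myeloma lines with a stable GFP (green fluorescent protein) label. Of these, MM.1S responds to dexamethasone, MM.1R is a dexamethasone-resistant line related to MM.1S, and INA-6 grows in dependence on interleukin 6. Each line was kept for 24 hours either alone or with the HS-5 stromal line, which lacks GFP, and GFP-positive cells were then recovered by sorting. The 6 groups (MM.1S alone, MM.1S with HS-5, MM.1R alone, MM.1R with HS-5, INA-6 alone, INA-6 with HS-5) had 2 arrays each. These are called technical replicates in the series text, so p-values within a line or between lines measure only the spread between duplicate arrays. The test of an effect common to the 3 lines is the exception, since there the lines are the replicates. MM.1R and MM.1S share their origin, and a single stromal line stands for the marrow stroma. The comparison addressed is how contact with stromal cells changes expression in each myeloma line.

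MHC class II molecules are pairs of an alpha and a beta chain (HLA-DR, -DP and -DQ) that show peptides from endosomes to CD4+ T cells. CD74, the invariant chain, fills the groove of new molecules until proteases cut it to a short remnant, which HLA-DM then exchanges for a peptide, while HLA-DO restrains HLA-DM. CIITA, the class II transactivator, does not bind DNA itself but is recruited by factors on conserved promoter boxes called S, X and Y. B cells express class II throughout most of their life, and PRDM1 (Blimp-1) silences CIITA as B cells become plasma cells, the cells from which myeloma arises.

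Values are deposited intensities on a linear scale. Tests used log2(value + 5), so fold changes are on that scale and understate the change of low values. A probe set was tested if it exceeded the median of its own array, which lay between 19.78 and 24.09, on at least 2 arrays. This held for 35664 probe sets and for 23 of the 26 members, with at least 1 tested probe set for each of the 10 genes. Adjusted p-values are from limma with Benjamini-Hochberg adjustment over all 35664, two-sided, and a probe set is called where the value is under 0.05. The duplicates correlated with r between 0.929 and 0.982 across probe sets in 5 groups, but with r = 0.821 in INA-6 alone, whose second array was higher for several members. All 10 plasma cell markers (SDC1, TNFRSF17, IRF4 and others) lay above the array median on both arrays of every group. Of 9 measured B cell markers 4 or 5 did so, and of 8 measured dendritic cell and monocyte markers between 0 and 2. Stromal cell RNA and RNA quality moved with the conditions. The summed level of 20 stromal markers such as COL6A1 was 680–742 in MM.1S alone, 730–796 in MM.1R alone and 742–880 in INA-6 alone. After coculture it was 10949–11241, 21674–21705 and 9504–9799 in the same order. The ratio of 3' to 5' ACTB signal, which rises as RNA is degraded, averaged 22.4 in MM.1S alone and 5.10 after coculture, 31.4 and 5.21 in MM.1R, and 5.51 and 32.0 in INA-6. The part of either in the changes below was not tested. In sorted bulk cells, fewer cells of a type and less RNA per cell cannot be told apart.

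Because several members moved together, their proximal promoters are shown. The RefSeq table for GRCh38.p14 held a window for 8 of the 10 genes (9 windows, since HLA-DPA1 has 2). The 250 bases before the start were searched for CCNAGNNAC, a relaxed form of the X box core, and for ATTGG, the core of the Y box, whose reverse complement is CCAAT. Both strands were searched and capitals mark the matches. Each line prints only a part of the 250 bases, so some matches lie outside it, such as the ATTGG or CCAAT of HLA-DMB. The windows of HLA-DPB1 and HLA-DOB, with ATTGG or CCAAT only, and the second window of HLA-DPA1, without a match, are not printed.
CD74, chr5:150412947-150413006, minus strand: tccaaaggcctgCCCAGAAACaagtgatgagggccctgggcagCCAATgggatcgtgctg
HLA-DMA, chr6:32953160-32953225, minus strand: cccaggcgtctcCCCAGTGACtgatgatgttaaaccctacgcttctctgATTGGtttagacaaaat
HLA-DOA, chr6:33009642-33009707, minus strand: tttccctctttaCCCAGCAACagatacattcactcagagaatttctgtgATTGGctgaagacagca
HLA-DMB, chr6:32941064-32941131, minus strand: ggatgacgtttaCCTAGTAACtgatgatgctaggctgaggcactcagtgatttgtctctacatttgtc
HLA-DPA1, chr6:33073696-33073763, minus strand: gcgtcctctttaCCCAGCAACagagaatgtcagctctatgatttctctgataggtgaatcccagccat
HLA-DQA1, chr6:32637291-32637354, plus strand: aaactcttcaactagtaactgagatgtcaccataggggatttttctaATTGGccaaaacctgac
CCNAGNNAC was found in 5 of the 9 member windows (55.6%) and in 13.7% of all 35116 windows. ATTGG or CCAAT was found in 7 of 9 (77.8%) and in 32.0% of all. CCNAGNNAC on the gene's strand followed within 40 bases by ATTGG or CCAAT was found in 3 of 9 (33.3%; CD74, HLA-DMA and HLA-DOA) and in 0.424% of all. The motifs were chosen with these genes in view and the matches only describe the letters. A box that differs from the searched letters by a single base is missed, so no match does not mean no box. CD74 and HLA-DMA, which hold the pair, are called higher after coculture in MM.1S below. HLA-DPA1 and HLA-DPB1, without a match to the pair, are called higher there too. HLA-DOA, which holds it, is not called after coculture in any line. A relation between the motifs and the changes was not tested.

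CD74, HLA-DRA, HLA-DPA1, HLA-DPB1, HLA-DMA and CIITA, each on its probe set of highest mean, were above the array median on every array of the MM.1 lines alone and far lower in INA-6. CD74 (probe set 209619_at) read 1686 and 1519 in MM.1S alone, 4544 and 4668 in MM.1R alone, and 15.6 and 18.0 in INA-6 alone. HLA-DRA, the alpha chain of HLA-DR, read 379 and 438 in MM.1S, 756 and 662 in MM.1R, and 22.8 and 85.3 in INA-6 on 208894_at. HLA-DPA1, the alpha chain of HLA-DP, read 693 and 609, 1490 and 1626, and 11.1 and 9.89 in the same order on 211990_at. The INA-6 arrays lay below every MM.1 array for these genes. HLA-DPB1, the beta chain of HLA-DP, read 247 and 294, 893 and 913, and 25.2 and 15.9 on 201137_s_at. HLA-DMA, a chain of the peptide exchanger, read 93.0 and 95.6, 323 and 281, and 26.4 and 13.1. CIITA read 81.4 and 148, 206 and 192, and 17.1 and 19.6 on 205101_at. These 3 also had no overlap between INA-6 and either MM.1 line. Here and below, overlap or separation of arrays only describes the values, since its share over all probe sets was not counted.

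**Figure D1:**
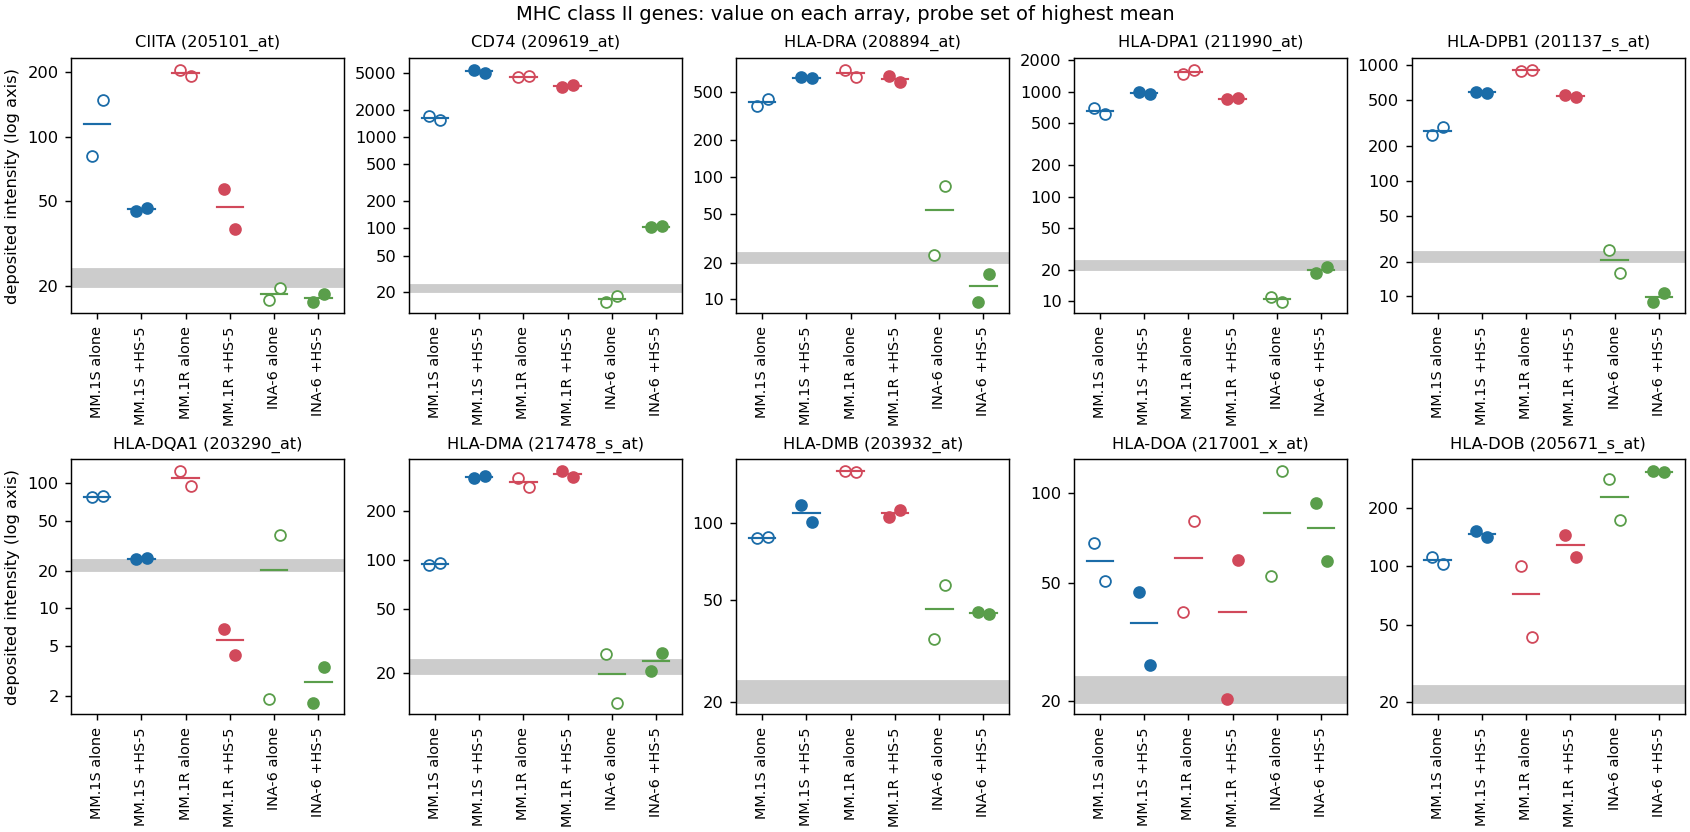
Deposited intensity (log axis) of the 10 class II genes on each of the 12 arrays, for the probe set of highest mean of each gene. Open points are cells cultured alone, filled points cells cultured with HS-5, short lines are the means of the 2 arrays, and the grey band spans the array medians (19.78 to 24.09); INA-6 arrays lie far below the MM.1 arrays for CD74 and HLA-DPA1 and above them for HLA-DOB.

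Of the 23 tested member probe sets, 12 were called lower and 2 higher in INA-6 than in the mean of the MM.1 lines alone, where 51.8% of all tested probe sets were called (19% higher, 32.8% lower). Of the 23, 9 passed the filter on low values only through their MM.1 arrays. A difference from INA-6 was thus built into their selection and this count is not support. Among the 9 are HLA-DPA1 211990_at, HLA-DRA 210982_s_at, HLA-DPB1 201137_s_at, CIITA 205101_at and HLA-DQA1 203290_at, so their values below are no support either. CD74 209619_at, HLA-DMA and HLA-DMB did not need the MM.1 arrays to pass. CD74 was lower by a log2 difference of -6.97 (95% interval -7.30 to -6.63; limma adjusted p = 2.68e-07). HLA-DPA1 211990_at differed by -6.03 (3.11e-07), HLA-DRA 210982_s_at by -5.33 (1.44e-06) and HLA-DPB1 201137_s_at by -4.31 (1.22e-06), with limma adjusted p-values in parentheses. HLA-DMA differed by -2.87, CIITA 205101_at by -2.71, HLA-DQA1 203290_at by -2.49 and HLA-DMB, the partner chain of HLA-DMA, by -1.30. The median over all 26 member probe sets was -0.99, and over all tested probe sets -0.17. HLA-DMB remained above the array median in INA-6, at 35.3 and 56.9 against 87.5 and 87.7 in MM.1S and 160 and 158 in MM.1R.

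HLA-DOB, the beta chain of the HLA-DM inhibitor, went the other way on 1 of its 2 probe sets. It read 281 and 173 in INA-6 alone on 205671_s_at, against 112 and 103 in MM.1S and 101 and 43.5 in MM.1R. The groups did not overlap, and the log2 difference was 1.33 (limma adjusted p = 0.00877). Without the first INA-6 alone array it was 0.99 (limma adjusted p = 0.058), so the call rests on that array. After coculture the difference was 1.14 (limma adjusted p = 0.0410), and that adjusted p rose to 0.208 in the alternative that moved it most. The other HLA-DOB probe set, 1554984_a_at, differed by 0.075 alone and was not called. Its means were 48.4 in INA-6 alone and 46.7 over the MM.1 lines alone. HLA-DOA, the partner chain of HLA-DOB, differed by 0.42 on 217001_x_at with a 95% interval from -0.71 to 1.56 and was not called. The second higher call was CD74 1567627_at (2.29), which read 32.8 and 139 in INA-6 alone, opposite to 209619_at. This probe set was above the array median only on the INA-6 alone arrays and passed the filter through them. Its call is thus no support either.

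Cultured alone, MM.1R carried more CD74, HLA-DP and HLA-DMA transcript than the related MM.1S. On 209619_at the CD74 mean was 2.87 times that of MM.1S (log2 difference 1.52; limma adjusted p = 0.00499). HLA-DPB1 201137_s_at was 3.34 times higher (1.73; limma adjusted p = 0.00642), HLA-DMA 3.20 times (1.62; 0.0126) and HLA-DPA1 211990_at 2.39 times (1.25; 0.00768). Neither MM.1R array overlapped the MM.1S arrays for any of these 4 genes, which with 2 arrays a group is a description only. In all, 6 of 23 member probe sets were called higher and 0 lower, against 5.81% and 1.14% of all tested probe sets (6.95% in either direction), 3 of the 6 being HLA-DPA1. HLA-DRA differed by 0.79 with an interval from -0.30 to 1.87, CIITA 205101_at by 0.83 (0.15 to 1.51) and HLA-DMB by 0.83 (0.31 to 1.34), and none of these 3 was called. The calls depend on both MM.1R arrays. Without the first or the second MM.1R alone array 0 of 23 remained called by limma, with adjusted p-values for CD74 of 0.0714 and 0.0526, while the log2 difference of HLA-DPB1 201137_s_at was 1.74 and 1.71. Without either MM.1S alone array 3 were called, and without either INA-6 alone array 10, since all groups share 1 estimate of the spread.

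Coculture raised CD74, HLA-DMA and both HLA-DP chains in MM.1S and lowered CIITA on 1 of its 2 tested probe sets. CD74 went from 1686 and 1519 to 5481 and 4992, a log2 change of 1.71 (interval 1.32 to 2.09; limma adjusted p = 0.000231). HLA-DMA went from 93.0 and 95.6 to 321 and 330, a change of 1.73 (1.12 to 2.35; limma adjusted p = 0.00183). The duplicates lay close together and the conditions far apart for both genes. HLA-DPB1 201137_s_at went from 247 and 294 to 591 and 572 (1.10; limma adjusted p = 0.00618). HLA-DPA1 rose by 1.11 on 211991_s_at (limma adjusted p = 0.0297) and by 0.58 on 211990_at, from 693 and 609 to 995 and 951 (limma adjusted p = 0.0368). After quantile normalization neither HLA-DPA1 probe set was called, and the adjusted p of 211990_at reached 0.286 over all alternatives. HLA-DRA was higher on every coculture array, at 657 and 648 against 379 and 438 on 208894_at, but its change of 0.67 was not called (interval -0.41 to 1.76). HLA-DMB changed by 0.30, with 118 and 101 against 87.5 and 87.7, and was not called.

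CIITA moved the other way on 205101_at, while 210925_at changed by -0.15 and was not called. On 205101_at it read 81.4 and 148 in MM.1S alone and 44.8 and 46.5 after coculture, and it fell by 1.18 on the log2 scale (limma adjusted p = 0.0180). The alone arrays were themselves far apart, and without the second one, or without either coculture array, the call was lost, with an adjusted p of up to 0.0937. HLA-DQA1 203290_at, the alpha chain of HLA-DQ, read 77.8 and 78.3 alone and 24.7 and 25.2 after coculture, a change of -1.47 that was not called (interval -3.06 to 0.12). The counts were 5 members higher and 1 lower of 23, where 20.4% and 8.98% of all tested probe sets were called (29.3% in either direction). The median change was 0.14 over the 26 members and 0.05 over all tested. The number called was 3 without the second MM.1S alone array or without either MM.1S coculture array, and 11 without either INA-6 alone array.

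In MM.1R the same genes did not rise. CD74 went from 4544 and 4668 to 3515 and 3701, a change of -0.35 that was not called (interval -0.74 to 0.04). HLA-DMA read 323 and 281 alone and 356 and 325 after coculture (0.17, not called). HLA-DPA1 211990_at fell by 0.86 on the log2 scale, from 1490 and 1626 to 844 and 870 (limma adjusted p = 0.0133). HLA-DPB1 201137_s_at went from 893 and 913 to 550 and 526, a change of -0.74 that was not called, although the arrays did not overlap. HLA-DRA 208894_at read 756 and 662, then 666 and 604, which overlapped.

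CIITA and HLA-DQA1 had the largest decreases among the members in MM.1R, on 205101_at and 203290_at. CIITA 210925_at changed by -0.09 and was not called. CIITA 205101_at went from 206 and 192 to 57.2 and 37.0, a change of -1.99 (interval -2.68 to -1.31; limma adjusted p = 0.00339). HLA-DQA1 203290_at went from 126 and 94.4 to 6.87 and 4.23, below the array median (-3.44; interval -5.03 to -1.85; limma adjusted p = 0.0130). For both genes every coculture array lay below every array of cells kept alone. These 2 and HLA-DPA1 were the 3 of 23 members called lower, with 0 called higher, where 3.48% and 10.5% of all tested probe sets were called (14% in either direction). The median was -0.32 over the 26 members and 0.02 over all tested. Without the second MM.1R alone array or either MM.1R coculture array 1 member was called, without the first MM.1R alone array 2, and without either INA-6 alone array 7. HLA-DQA1 then reached an adjusted p of up to 0.0846 and HLA-DPA1 of up to 0.106.

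**Figure D2:**
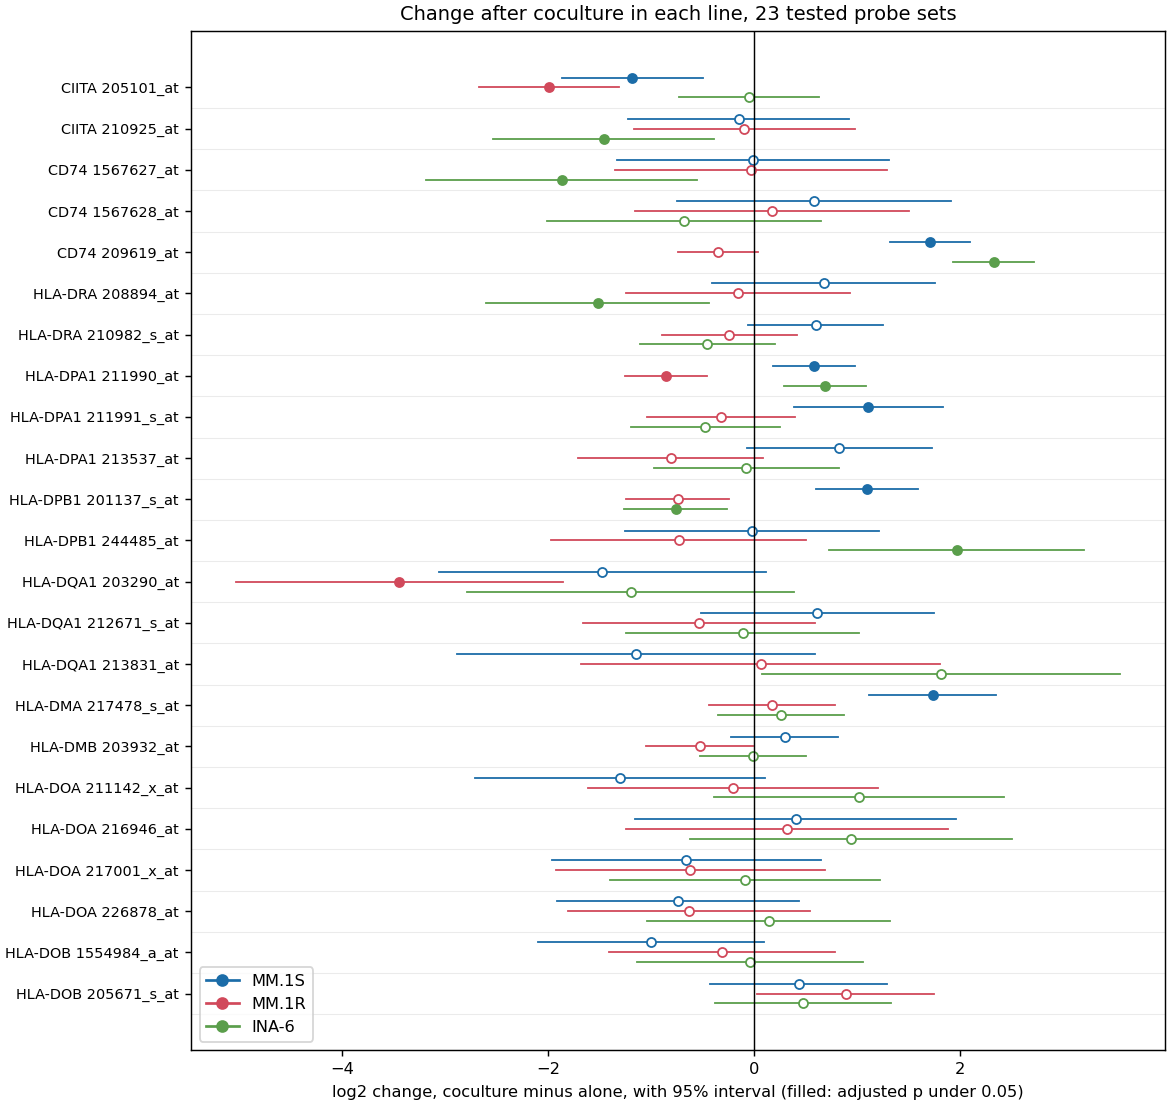
Change after coculture (log2, coculture minus alone) in each line for the 23 tested class II probe sets, with the 95% interval from the 12-array fit. Filled points have a limma adjusted p under 0.05; CD74 209619_at is far to the right in MM.1S (1.71) and INA-6 (2.32) and left of 0 in MM.1R (-0.35), while CIITA 205101_at lies left of 0 in MM.1S (-1.18) and MM.1R (-1.99).

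INA-6 gained CD74 transcript from a low level. CD74 209619_at went from 15.6 and 18.0 to 102 and 106, 6.19 times the mean alone and still far below both MM.1 lines (log2 change 2.32; interval 1.94 to 2.71; limma adjusted p = 2.65e-05). The chains that CD74 escorts changed by less and in both directions, on their probe sets of highest mean mostly at values near or below the array median. HLA-DRA 208894_at went from 22.8 and 85.3 to 9.55 and 16.1, and fell by 1.52 (limma adjusted p = 0.0285), but without the second INA-6 alone array the change was -0.67 (limma adjusted p = 0.0518). HLA-DPB1 201137_s_at went from 25.2 and 15.9 to 8.99 and 10.8, and fell by 0.76 (limma adjusted p = 0.0204). Without the first INA-6 alone array its change was -0.49 and without the second -1.03, and the call was lost without either INA-6 coculture array (limma adjusted p = 0.112 and 0.0604) and after quantile normalization (0.0537). HLA-DPA1 211990_at went from 11.1 and 9.89 to 18.6 and 21.4 and rose by 0.69 (limma adjusted p = 0.0115), all 4 values being below the array medians. The other HLA-DPA1 probe sets, 211991_s_at and 213537_at, changed by -0.47 and -0.08 and were not called. CIITA 205101_at stayed between 16.9 and 19.6 on the 4 INA-6 arrays (-0.05, interval -0.73 to 0.63). HLA-DMA changed by 0.26 (interval -0.35 to 0.88) and HLA-DMB by -0.01 (-0.52 to 0.51).

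The counts in INA-6 were 3 members higher and 4 lower of 23, where 35.2% and 12.5% of all tested probe sets were called (47.7% in either direction). All tested probe sets shifted upward in this line, with a median of 0.40, or 0.16 after quantile normalization. Relative to the median of 0.40, CD74 209619_at rose by 1.92 and HLA-DPA1 211990_at by 0.29. The median over the 26 members was -0.08. The number called was 2 without either INA-6 coculture array and 12 without the first INA-6 alone array. Of the 7 calls, HLA-DPB1 244485_at (1.97) lost its call without the first INA-6 alone array, at 1.59 (limma adjusted p = 0.0762), and CD74 1567627_at (-1.87) without the second, at -0.91 (limma adjusted p = 0.103). CIITA 210925_at fell by 1.46, or by 0.60 without the second array. CD74 1567627_at passed the filter only through the INA-6 alone arrays, so neither its fall nor its part in the count is support.

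No member passed the test of a coculture effect common to the 3 lines, in which the lines are the replicates. The limma count was 0 of 23, with 1 at an unadjusted p under 0.05, where 1.13% of all tested probe sets were called (402 of 35664; 6919 at an unadjusted p under 0.05). Without averaging the duplicates 3 members were called by limma, and without INA-6, 2.

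The difference of the coculture effect between the lines was tested directly. An F-test over the lines in limma called 6 of 23 members, where 32.8% of all tested probe sets were called, so the members did not stand out. They were CIITA 205101_at, CD74 209619_at, HLA-DPA1 211990_at and 211991_s_at, HLA-DPB1 201137_s_at and HLA-DMA. All but CD74 and HLA-DMA passed the filter only through their MM.1 arrays, so their calls are no support for a difference from INA-6. The effect in MM.1R minus that in MM.1S was -2.06 for CD74 (interval -2.61 to -1.51; limma adjusted p = 0.0376), the 1 member called lower of 23, with 0 higher, where 0.328% and 0.0701% of all were called (0.398% in either direction). It was -1.84 for HLA-DPB1 201137_s_at (limma adjusted p = 0.0538), -1.43 for HLA-DPA1 211990_at (0.0547) and -1.56 for HLA-DMA (0.101), which were not called. The CD74 call was lost in 13 alternatives, with an adjusted p of up to 0.278, among them each one that left out an MM.1S, MM.1R or INA-6 coculture array or an MM.1S or MM.1R alone array. Without any INA-6 array 9 members were called, CD74 with a limma adjusted p of 0.0183. Against the mean of the MM.1 lines, INA-6 differed in 4 members upward and 2 downward, where 24.1% and 12.8% of all were called (36.9% in either direction). Among them CIITA 205101_at, HLA-DPA1 211990_at and HLA-DPB1 201137_s_at passed the filter only through their MM.1 arrays, so the count is not support.

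By their values, the MM.1 lines lay closer together after coculture than alone for CD74, HLA-DPB1 and HLA-DMA. CD74 read 5481 and 4992 in MM.1S and 3515 and 3701 in MM.1R, a log2 difference of -0.54 (interval -0.92 to -0.15). HLA-DPB1 201137_s_at read 591 and 572 against 550 and 526 (-0.11, interval -0.61 to 0.39), and HLA-DMA 321 and 330 against 356 and 325 (0.06, -0.55 to 0.68). The interval of HLA-DMB ran from -0.52 to 0.52. HLA-DRA 208894_at differed by -0.04 (-1.12 to 1.04) and CIITA 205101_at by 0.01 (-0.67 to 0.69). The intervals of HLA-DPB1 and HLA-DMA do not reach the differences of 1.73 and 1.62 seen alone, but this leaves out the error of those differences. The direct test of such a narrowing, the effect in MM.1R minus that in MM.1S above, called neither gene. For HLA-DRA the interval is too wide to tell. HLA-DQA1 203290_at was lower in MM.1R (-1.51, interval -3.10 to 0.08) and was not called. Of the 23 members limma called 0, with 1 at an unadjusted p under 0.05. Of all 35664 probe sets it also called 0 (0%), with 1290 at an unadjusted p under 0.05. The lack of calls is thus not particular to class II genes and, with 2 arrays a group, does not show equal levels. The 18 tested stromal markers had a median difference of 1.07 between these groups, with 0 called. These comparisons use the same arrays as the coculture changes. Set against the MM.1 lines after coculture, INA-6 had 10 members called lower and 1 higher, where 11.4% and 8.23% of all were called (19.6% in either direction). CD74 differed by -5.32 (limma adjusted p = 5.65e-07), HLA-DRA 210982_s_at by -5.97 (3.63e-06) and HLA-DPB1 201137_s_at by -5.25 (1.55e-06). The last 2 passed the filter only through their MM.1 arrays, as did the others of the 9 counted above. Neither these 2 values nor the count are support for a difference from INA-6.

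**Figure D3:**
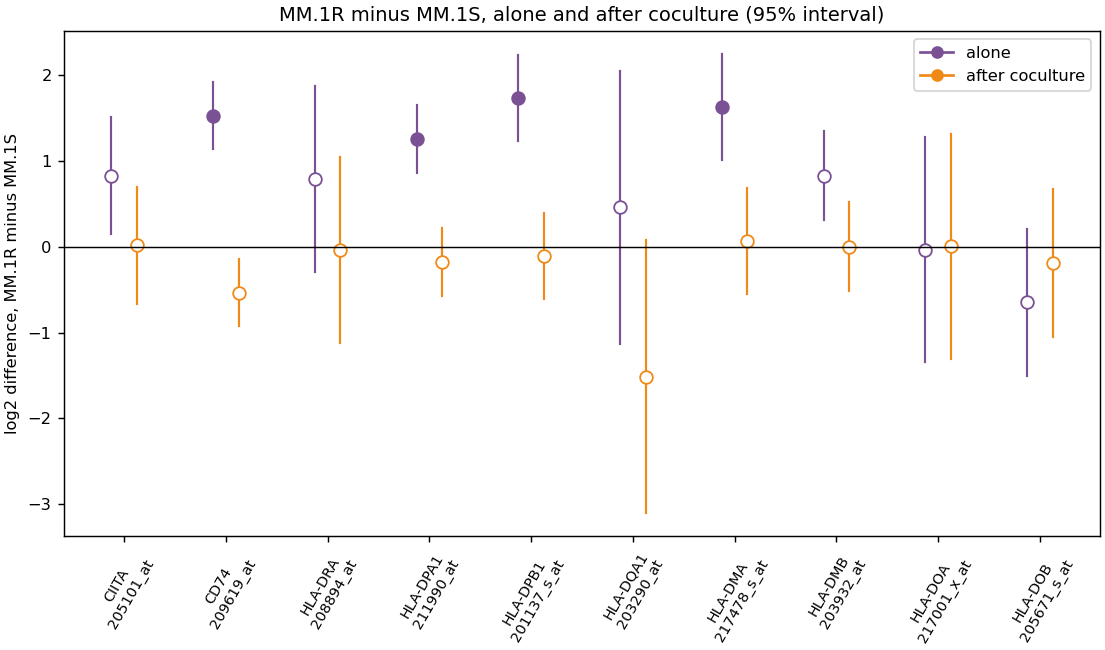
Log2 difference MM.1R minus MM.1S for the probe set of highest mean of each of the 10 class II genes, in cells kept alone and after coculture, with 95% intervals; filled points have a limma adjusted p under 0.05. CD74, HLA-DPA1, HLA-DPB1 and HLA-DMA lie between 1.25 and 1.73 alone and between -0.54 and 0.06 after coculture.

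Probe sets of the same gene did not always move alike. Of the 8 genes with several probe sets, 5 had changes of both signs after coculture in MM.1S, 5 in MM.1R and 6 in INA-6, most of them among probe sets near the array median. The 2 HLA-DRA probe sets had the same sign in every line, at 0.67 and 0.60 in MM.1S, -0.16 and -0.24 in MM.1R, and -1.52 and -0.45 in INA-6. The 3 of HLA-DPA1 had the same sign in both MM.1 lines, from 0.58 to 1.11 in MM.1S and from -0.86 to -0.32 in MM.1R. In INA-6 CD74 209619_at rose by 2.32 while 1567627_at fell by 1.87, the widest span among the genes with calls in both directions there. The fall of 1567627_at is no support, since it passed the filter only through the INA-6 alone arrays. HLA-DPB1 also had both, since 201137_s_at fell by 0.76 in INA-6 while 244485_at rose by 1.97, from 5.01 and 11.9 to 69.7 and 29.5. HLA-DQA1 is highly polymorphic, and its 4 probe sets ranged from -3.44 to 0.06 in MM.1R. On 203290_at the gene fell there, whereas 213831_at read 2.51 and 36.4 alone and 9.60 and 18.2 after coculture, so its duplicates spread more than the conditions. The probe set shared with HLA-DQA2, 212671_s_at, stayed between 12.4 and 51.3 on all 12 arrays and was not called after coculture in any line. In MM.1S, where CD74 209619_at rose by 1.71, 1567627_at changed by -0.01 and was not called. HLA-DOA had 5 probe sets, 4 of them tested, and none was called after coculture in any line. On 217001_x_at it ranged from 20.4 to 119 with overlapping groups.

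Among the genes of class II transcription and of antigen processing, more were called higher than lower after coculture in each line. The same held for all tested probe sets. Of those, 20.4% were called higher and 8.98% lower in MM.1S, 10.5% and 3.48% in MM.1R, and 35.2% and 12.5% in INA-6. All list counts after coculture, here and in the next paragraphs, stand beside these shares. Of 11 measured genes of class II transcription, 5 rose and 0 fell in MM.1S, 2 rose and 0 fell in MM.1R, and 9 rose and 1 fell in INA-6 (limma). The median changes were 0.28, -0.04 and 1.98. RFXANK, a subunit of the RFX complex on the X box, had means of 27.7, 56.9 and 111 in MM.1S, MM.1R and INA-6 alone and of 268, 283 and 286 after coculture, and was called in each line. RFX5, its DNA-binding subunit, went from 211 to 876 in MM.1S (2.03, limma adjusted p = 0.000783) and from 59.2 to 366 in INA-6 (2.60, 0.000125), and its change of 0.49 in MM.1R was not called. KDM6B, a histone demethylase, fell by 1.58 in INA-6. Alone, 9 of the 11 were lower and 2 higher in INA-6 than in the MM.1 lines, RFX5 by -2.51. Of all tested probe sets 32.8% were called lower and 19% higher there. PRDM1, the repressor of CIITA, rose in MM.1S from a mean of 710 to 1893 (1.41, limma adjusted p = 0.00583) and in INA-6 from 127 to 325 (1.39, limma adjusted p = 0.00383). Its MM.1R means were 1178 and 2025, and that change was not called (0.78, limma adjusted p = 0.108).

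**Figure D4:**
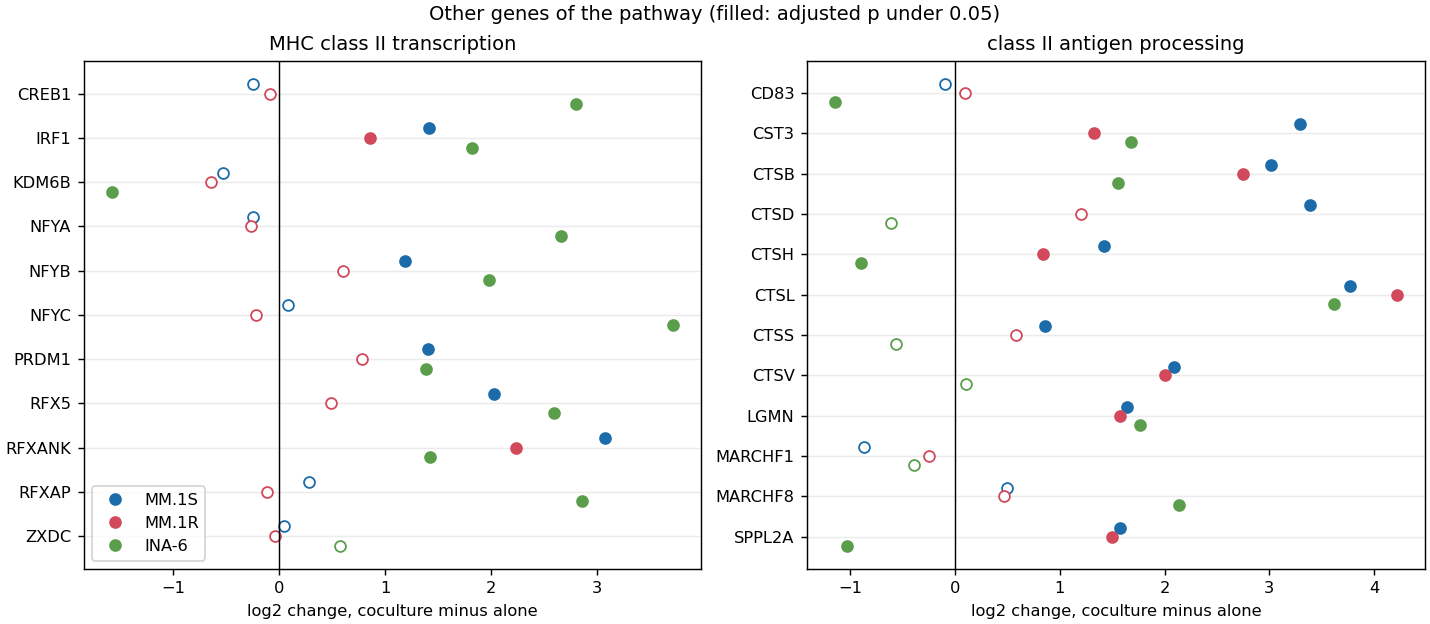
Change after coculture (log2, coculture minus alone) in each line for 11 genes of class II transcription (left) and 12 genes of antigen processing for class II (right), each by its probe set of highest mean; filled points have a limma adjusted p under 0.05. RFXANK and CTSL are right of 0 in all 3 lines, while NFYC, RFXAP and CREB1 have filled points for INA-6 and open points for the MM.1 lines.

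Of 12 measured genes of antigen processing, 9 rose in MM.1S, 7 in MM.1R and 5 in INA-6, and 0, 0 and 3 fell (limma). CTSL, a protease that can cut the invariant chain, was the 1 gene called in the common test (3.87, limma adjusted p = 0.0113) with means of 33.1, 44.5 and 39.7 alone and 506, 907 and 437 after coculture, the lines in the same order. CTSB, another endosomal protease, rose by 3.02, 2.74 and 1.55. Both rose beside the stromal markers, 13, 14 and 12 of which were called higher in the 3 lines out of 18 tested, COL6A2 by 7.09, 7.91 and 6.45. MARCHF1, a ligase that removes class II from the surface, was not called in any line, with -0.87 in MM.1S. CD83, which opposes MARCHF1, fell by 1.14 in INA-6. Of 7 tested genes of the interferon gamma receptor pathway, the main known inducer of CIITA outside B cells, 3 rose in MM.1S, 2 in MM.1R and 4 in INA-6, and 0 fell. IFNGR1, the ligand-binding receptor chain, rose by 2.64 in MM.1S and 1.96 in MM.1R, and its change in INA-6 was -0.14 (not called). IFNGR2 rose by 1.55 in MM.1S and 1.73 in INA-6, and its change of 1.04 in MM.1R was not called.

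Of 5 tested other class II chains, 1 rose and 1 fell in MM.1S, 0 rose and 1 fell in MM.1R, and 0 rose and 1 fell in INA-6 (limma). The HLA-DRB6 pseudogene, called higher in MM.1S and lower in both other lines after coculture, had means of 181 and 313 in MM.1S, 547 and 317 in MM.1R, and 12.9 and 7.35 in INA-6, alone and after coculture. HLA-DQB2 fell by 1.65 in MM.1S (limma adjusted p = 0.0476). HLA-DRB4 was not called after coculture in any line. HLA-DRB1, named after its values were seen, did not show the INA-6 difference on 208306_x_at, with means of 2082, 1942 and 1885 in MM.1S, MM.1R and INA-6 alone. The reason was not tested.

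Markers of the cell types that carry class II were set beside the members. Of 10 plasma cell markers, 8 rose and 0 fell in MM.1S, 3 rose and 0 fell in MM.1R, and 3 rose and 4 fell in INA-6 (limma). IRF4, a regulator of plasma cell identity, rose by 2.15, 0.89 and 1.03 in the same order. In INA-6 SLAMF7 fell by 2.43 and JCHAIN by 1.09. Of 9 tested B cell markers, CIITA among them, 2 rose and 1 fell in MM.1S, 1 rose and 1 fell in MM.1R, and 3 rose and 1 fell in INA-6. SPIB, a B cell transcription factor, rose by 2.22, 0.75 and 1.56, and BACH2, which opposes plasma cell differentiation, rose by 1.25 in MM.1S and 2.34 in INA-6 and was not called in MM.1R (0.83). CD22 fell by 1.11 in INA-6. Of 5 tested dendritic cell and monocyte markers (ITGAX, CLEC10A and FCGR1A among them), limma called 0 in any line, with 0 at an unadjusted p under 0.05. The stromal markers TAGLN and ENG were not called in any line, unlike the collagens.

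The genes whose levels over the 12 arrays were most like CD74 209619_at (Pearson r of log2 values) were STK39 at 0.995, DYNC2I2 at 0.995, JAKMIP1 at 0.994, IGLL3P at 0.992 and GUSBP11 at 0.992. Those most like HLA-DRA 208894_at were MEST at 0.989, ADGRE1 at 0.988, MAPK13 at 0.987, ITM2A at 0.981 and GIMAP8 at 0.980. The 12 arrays hold 3 lines, and the gap between INA-6 and the MM.1 lines is shared by all these genes, so r is a description only.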

How the data were processed

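The authors deposited 1 table of linear intensity values for 12 arrays. The tool was MAS5 per the submitters' processing notes, while the series text describes dChip modeling, so how the values were made is not settled, with versions not given in the sources used here. Scanner files were not used here. Genes were named from the array's deposited annotation (41097 probe sets with 1 symbol, 1801 with several, 11776 with none); 62 control probe sets and 1 with a missing value were left out. The pseudocount of 5, the filter and the tests are given with the results. limma 3.58.1 in R 4.3.3 fitted all tested probe sets, with a mean per group on 12 arrays (6 residual degrees of freedom, prior 2.21) or, for the common effect, on duplicates averaged to 6 values with the line as a block (2 residual, prior 4.82). The code was tested on simulated data. The members, lists and motifs were chosen with earlier results of these data known. All 10 members are named; of each list the counts and the 2 largest rises and falls in the common test, and the 5 genes most like CD74 and HLA-DRA. HLA-DRB1 was named in addition. Comparisons after coculture and the alternative without INA-6 arrays were added after seeing the data. Alternatives were the pseudocount, the filter, quantile and median scaling, 1 probe set a gene, a replicate block and leaving out arrays or lines. The number of arrays limits the precision.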

Additional observations from a re-analysis of the deposited data

Results flagged for a closer look

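In 6 member probe sets the coculture effect itself differed between lines in 1 of the contrasts below or, for CD74 209619_at, in both (limma, adjusted over all tested probe sets). Of all tested probe sets 0.398% were called for MM.1R minus MM.1S and 36.9% for INA-6 minus the mean of the MM.1 lines. CD74 209619_at had an effect in MM.1R minus MM.1S of -2.06. The other 6 are effects in INA-6 minus the mean of the MM.1 lines. CD74 209619_at had 1.65 (limma adjusted p = 0.000609), CIITA 205101_at 1.54 (0.0115), HLA-DPA1 211990_at 0.83 (0.0164) and HLA-DPB1 244485_at 2.34 (0.0244). HLA-DRA 208894_at had -1.78 (0.0424) and HLA-DPB1 201137_s_at -0.94 (0.0255). The median of this difference over all tested probe sets was 0.19. CIITA 205101_at, HLA-DPA1 211990_at and HLA-DPB1 201137_s_at passed the filter only through their MM.1 arrays, so their values here are no support. CIITA 205101_at stayed between 16.9 and 19.6 on the INA-6 arrays, below the array medians. HLA-DRA lost its call in 12 alternatives, with an adjusted p of up to 0.154, HLA-DPB1 201137_s_at in 10 (up to 0.175) and 244485_at in 4 (up to 0.107). Groups of 2 arrays were too small to look for outlying arrays.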

How the results depend on the processing

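Of 2216 recomputed values for 107 single results, 1964 kept their direction and side of the threshold, 152 lost the call, 61 gained it, and 39 (of 19 results) changed sign without being called in either setting. No called value reversed. Member counts that moved by more than 1.5 times were as follows. The common effect gave 3 without averaging and 2 without the line INA-6, against 0. Without all INA-6 arrays MM.1S gave 12 and MM.1R 6, and quantile normalization gave 5 in MM.1R. With 1 probe set a gene, by construction fewer probe sets, INA-6 gave 4 and INA-6 against the MM.1 lines alone 9. Leaving out 1 array gave 0 to 0 for the common effect, 3 to 11 in MM.1S, 1 to 7 in MM.1R, 2 to 12 in INA-6, 13 to 16 for INA-6 against MM.1 alone and 8 to 14 after coculture. It gave 0 to 10 for MM.1R against MM.1S alone, 0 to 1 after coculture and 3 to 14 for the F-test. A group left with 1 array is assumed to vary like the others. Quantile normalization changed the share of higher calls among all called probe sets from 69.4% to 57.6% in MM.1S, 75.1% to 57.1% in MM.1R, 73.7% to 60.9% in INA-6 and 83.7% to 70.8% for MM.1R against MM.1S alone. For the effect in MM.1R minus MM.1S, 2 probe sets and 0 members were called with median centring, against 142 and 1, and members called ranged from 0 to 9 over all alternatives. Replicate numbers did not pair the arrays in the same way in all lines. Differences between replicates 1 and 2 correlated above 0.1 in 6 of 15 pairs of groups (range -0.52 to 0.58). Between the alone and coculture groups of a line, r was 0.385 in MM.1S, 0.576 in MM.1R and 0.078 in INA-6. Between MM.1R and the other lines r was negative. A single block over all groups cannot take up a pattern whose sign differs between lines, and a block within each line was not tested. With the replicate number as a block 5 members were called in MM.1S, 3 in MM.1R, 7 in INA-6, 14 for INA-6 against MM.1 alone, 4 for MM.1R against MM.1S alone and 0 for the effect in MM.1R minus MM.1S.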
